A study of Mus musculus with 12 samples.

Results

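The 10 glutathione transferase genes described here are the mu-class genes Gstm1 to Gstm7, the alpha-class gene Gsta4, the theta-class gene Gstt1 and the pi-class gene Gstp1, out of 19938 genes measured. They were chosen by a measured value, the higher Gstm6 in S/S fibroblasts, so the S/S comparison, which chose them, is given as a description without a test, and the question put to the other genes was whether the mu cluster followed Gstm6. RNA abundance was measured on 12 Affymetrix Mouse Gene 1.0 ST arrays of mouse embryonic fibroblasts, in 4 groups of 3: Rb1 S/S mutant cells, Rb1 +/+ cells matched to them (the S-set wild type), Rb1 L/L mutant cells, and Rb1 +/+ cells matched to those (the L-set wild type). All 4 groups had been grown in 10% FBS to passage 4 and then arrested in 0.1% FBS for 72 h, and no group in growing medium was analysed here. Rb1 encodes the retinoblastoma protein, which represses E2F-driven genes in arrested cells. The labels leave out the nature of both alleles, the mouse strain and the age of the embryos.

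Glutathione transferases couple the tripeptide glutathione to electrophiles such as lipid peroxidation products, drugs and environmental toxins, which makes these compounds soluble and ready for export. The cytosolic enzymes work as dimers and fall into classes by sequence. The mu-class genes lie next to each other on mouse chromosome 3 and arose by duplication, so their transcripts resemble each other and a probe set of one may bind RNA of another. Several members of the family are targets of NRF2, a transcription factor that is held down by KEAP1 and released by oxidants, and that binds the antioxidant response element in promoters.

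Values are log2 RMA values, on which a difference of 1 is a doubling of the measured signal. Values of different probe sets are not ranked against each other, apart from a rough guide to the lowest level that can be read. Array medians lay between 6.85 and 7.01. Array 1 of the S-set wild type stood apart, with an interquartile range of 3.10 against at least 3.39 in the others, so results that turn on it are given without it as well. The 2 arrays numbered 1 in the L set, 1 per group, had Y-linked signal and the other 10 arrays had none. In those 10 arrays the Y-linked genes Uty, Kdm5d and Eif2s3y read 3.82 to 5.51, which serves as a rough guide to the value of a probe set without its target. Fibroblast markers had a mean level of 11.65 to 12.09 in every array, and hepatocyte markers, the cells best known for these enzymes, 5.80 to 6.38. Rb1 itself read 8.68 in S-set wild type, 9.55 in S/S, 8.97 in L-set wild type and 9.33 in L/L. Nothing in the labels tells whether arrays of a group came from separate embryos, so p-values measure only the spread between these samples. In RNA of a whole culture, a change in the share of cells of one kind and a change in RNA per cell cannot be told apart.

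RefSeq promoter windows of 300 bases, from 250 before to 50 after a gene's start, were at hand for 9 of the 10 genes (14 windows, GRCm38.p6). The 3 windows of Gstm6 are shown because this gene stood apart from its neighbours in the values given next. Capitals in windows 1 and 2 mark the longest run of letters they share, 17 bases. The longest run between a Gstm6 window and a window of another member was 13 bases, with Gstm3. The windows of Gstm5 and Gstm7 are shown because they alone among the 14 held the antioxidant response element core TGACNNNGC, marked there in capitals. All sequences run 5′ to 3′ along the gene.
Gstm6 window 1, chr3:107953417-107953716, minus strand: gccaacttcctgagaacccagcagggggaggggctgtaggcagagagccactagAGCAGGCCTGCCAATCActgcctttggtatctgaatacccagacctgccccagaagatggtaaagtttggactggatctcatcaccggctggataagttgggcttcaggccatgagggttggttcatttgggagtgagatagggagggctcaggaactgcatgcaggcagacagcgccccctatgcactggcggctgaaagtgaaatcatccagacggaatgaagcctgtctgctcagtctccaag
Gstm6 window 2, chr3:107943685-107943984, minus strand: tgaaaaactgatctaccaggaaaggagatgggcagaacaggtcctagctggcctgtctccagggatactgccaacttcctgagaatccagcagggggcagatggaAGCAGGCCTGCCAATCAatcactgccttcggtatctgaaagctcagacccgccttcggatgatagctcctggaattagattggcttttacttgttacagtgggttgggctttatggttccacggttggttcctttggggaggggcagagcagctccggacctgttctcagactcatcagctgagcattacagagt
Gstm6 window 3, chr3:107943349-107943648, minus strand: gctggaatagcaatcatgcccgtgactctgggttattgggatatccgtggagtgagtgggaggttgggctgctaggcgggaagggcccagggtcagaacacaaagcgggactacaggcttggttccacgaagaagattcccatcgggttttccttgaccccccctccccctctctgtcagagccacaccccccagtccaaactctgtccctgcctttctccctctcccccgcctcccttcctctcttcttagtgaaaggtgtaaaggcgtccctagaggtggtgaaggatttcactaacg
Gstm5, chr3:107895604-107895903, plus strand: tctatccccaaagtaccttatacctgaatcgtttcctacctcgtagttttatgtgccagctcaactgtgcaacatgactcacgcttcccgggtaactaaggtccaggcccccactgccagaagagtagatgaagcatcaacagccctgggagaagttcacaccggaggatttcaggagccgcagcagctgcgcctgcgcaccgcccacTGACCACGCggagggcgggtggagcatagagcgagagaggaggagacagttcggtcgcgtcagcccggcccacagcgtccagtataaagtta
Gstm7 window 2, chr3:107931565-107931864, minus strand: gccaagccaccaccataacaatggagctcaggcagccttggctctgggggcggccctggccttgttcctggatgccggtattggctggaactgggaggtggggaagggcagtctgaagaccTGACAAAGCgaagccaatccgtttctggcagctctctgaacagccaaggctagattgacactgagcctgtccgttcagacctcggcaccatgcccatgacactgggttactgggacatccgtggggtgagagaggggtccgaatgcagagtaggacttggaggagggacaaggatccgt
The match began at position -42 from the start of Gstm5 and at -129 in Gstm7, on the gene's own strand in both. The core was searched on both strands and was present in 12.4% of the 32851 promoter windows of the table. The E2F letters TTTCCCGC, TTTGGCGC, TTTCGCGC and TTTGCCGC were searched the same way. They were present in 2.26% of all windows and in 0 of these 14, so no E2F match overlapped a match of the other motif. A missing match says only that these letters were not in these windows.

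Gstm6 (Entrez gene 14867, probe set 10501208, chromosome 3), a mu-class transferase, was the 1 member that was higher in S/S, and this is the value for which the family was picked. It read 6.40, 6.24 and 6.22 in the 3 wild-type arrays of the S set and 7.87, 7.97 and 8.58 in S/S. All S/S arrays lay above all wild-type arrays, by a mean difference of 1.85 (SE 0.25), or 3.62-fold, the fifth largest difference in size among all genes. In the L set Gstm6 read 4.98, 4.94 and 5.49 in control arrays and 5.12, 4.92 and 5.97 in L/L. Apart from array 3 of L/L, these values were no higher than Y-linked genes read in arrays without Y signal, so a fall there could hardly have been measured. The value of 5.49 was within that range only through array 1 of the S-set wild type, without which the range ended at 5.17. In L/L the difference of Gstm6 was 0.20 (SE 0.25, limma's moderated test, adjusted p = 1, 95% interval -0.34 to 0.74). The 4 groups thus stood in the order S/S, wild type of the S set, L/L and wild type of the L set, and the latter pair overlapped.

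The wild types differed in Gstm6 as well. All 3 arrays of the L-set wild type lay below all 3 of the S set, with means of 5.13 ± 0.30 and 6.29 ± 0.10 (SD, n = 3 each). That difference of -1.15 (SE 0.25) was larger in size than 99.5% of all genes in the same comparison. The L-set values lay at or near the level of an absent target, so the gap in RNA may be larger than the value read. A shift in processing between the sets, on which the labels are silent, could also be part of it and was not tested. Of the other members, Gstm2 (-0.47) and Gstm7 (-0.23) also had no overlap between the wild types and were lower in the L set. Part of the Gstm2 gap rested on array 1 of the S-set wild type, which read 11.46 against 11.02 and 10.94. The L-set wild type, at 10.56, 10.83 and 10.64, lay below those 2 arrays as well. The 3 of 10 members that were lower without overlap stand beside 16.1% of all genes in this comparison, which shares its S-set arrays with the one that chose the members and was not tested.

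**Figure D1:**
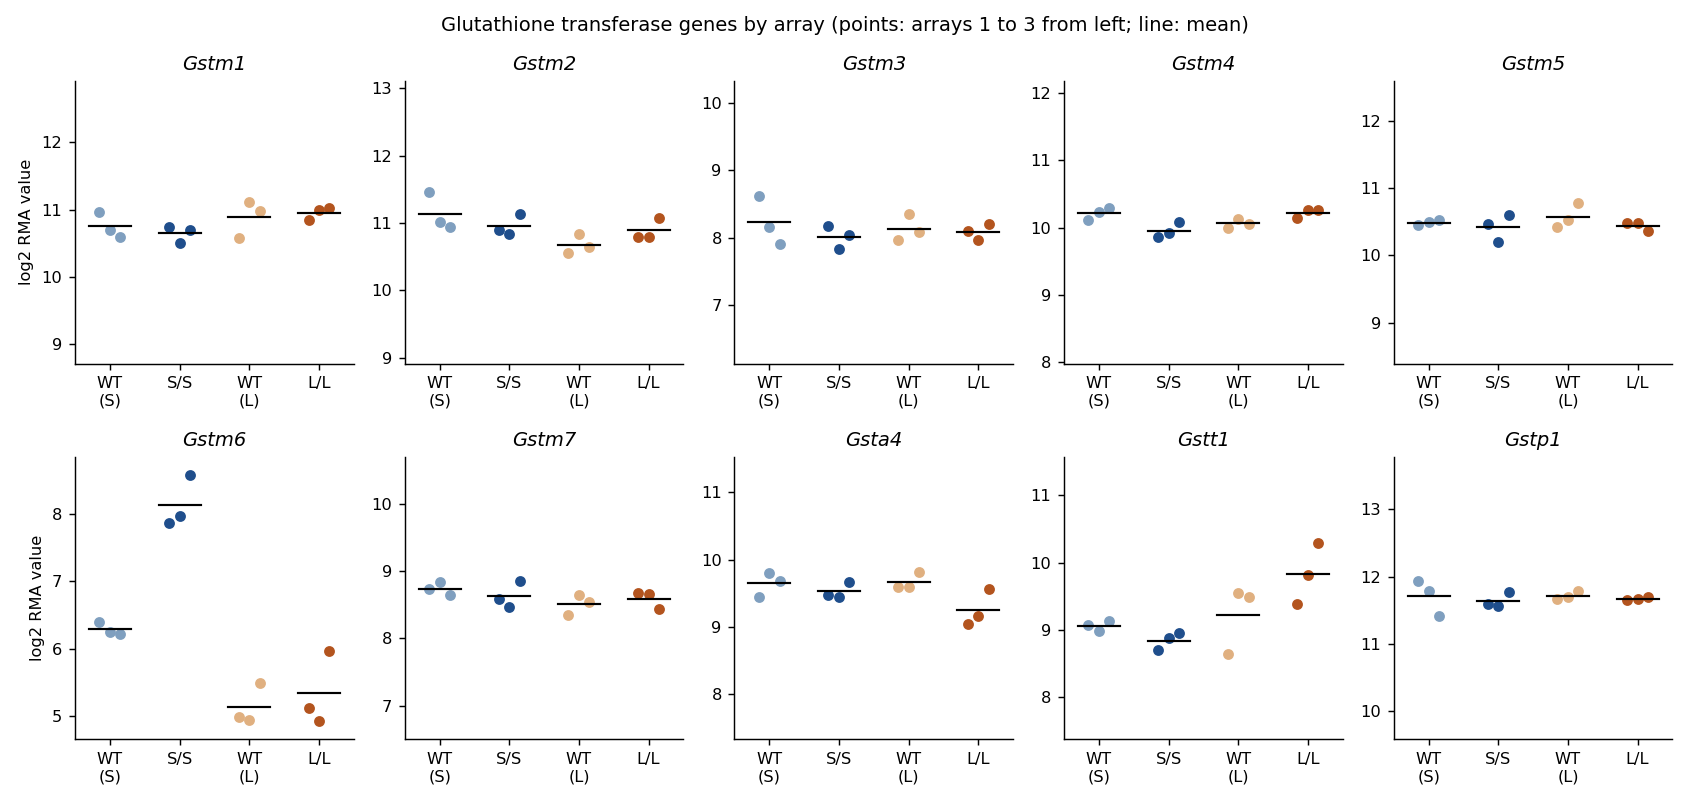
Log2 RMA value of each of the 10 genes in each of 12 arrays, with 1 panel per gene, equal spans on the vertical axes, points for arrays and lines for group means. Gstm6 stands at 7.87 to 8.58 in S/S against 6.22 to 6.40 in its wild type, while the other 9 genes span at most 1.65 over all arrays.

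The other mu-class genes did not follow Gstm6 in S/S. All 6 had a mean below wild type, by 0.07 to 0.26 on the log2 scale, with a median of -0.15 against -0.04 over all genes. Gstm4 (Entrez gene 14865, probe set 10501235), a mu-class gene at the end of the cluster, read 10.11, 10.24 and 10.30 in wild type and 9.86, 9.92 and 10.09 in S/S, so that no arrays overlapped (difference -0.26, SE 0.10). Gstm1 and Gstm2 code for major mu-class enzymes of many mouse tissues. Gstm1 read 10.97, 10.70 and 10.59 in wild type and 10.74, 10.50 and 10.70 in S/S, a difference of -0.10 (SE 0.14) with overlapping arrays. Gstm2 read 11.46, 11.02 and 10.94 in wild type and 10.90, 10.83 and 11.14 in S/S, a difference of -0.18 (SE 0.15), also with overlap. Among the S-set arrays both were highest in wild-type array 1, the array that stood apart. Without that array Gstm1 differed by 0.01 (SE 0.14) and Gstm2 by -0.02 (SE 0.12).

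Gstm5, the mouse counterpart of human GSTM3, had the smallest S/S difference of the family at -0.07 (SE 0.12). It read 10.45, 10.49 and 10.52 in wild type and 10.46, 10.20 and 10.60 in S/S, so the S/S arrays spread to both sides of wild type. Gstm7 read 8.73, 8.84 and 8.64 in wild type and 8.58, 8.46 and 8.85 in S/S (difference -0.11, SE 0.13), again with overlap. Gstm3 was measured by 2 probe sets, and the one of higher mean read 8.62, 8.15 and 7.91 in wild type and 8.17, 7.83 and 8.04 in S/S (difference -0.21, SE 0.17). Without wild-type array 1 that difference was -0.01 (SE 0.14). The other Gstm3 probe set gave 6.76 in wild type and 6.78 in S/S, a difference of 0.02, so the probe sets gave differences of opposite sign.

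Outside the mu class the S/S differences were as small. Gstt1, the theta-class enzyme that acts on small halogenated compounds, read 9.07, 8.99 and 9.13 in wild type and 8.70, 8.88 and 8.95 in S/S, without overlap (difference -0.22, SE 0.24). Gsta4, the alpha-class enzyme with high activity towards the lipid peroxidation product hydroxynonenal, differed by -0.11 (SE 0.14) and its arrays overlapped. Gstp1, the pi-class enzyme, differed by -0.08 (SE 0.12) with overlap. Without wild-type array 1 Gsta4 differed by -0.21 (SE 0.14) and Gstp1 by 0.03 (SE 0.11). Gstm6 was picked from the 0.12% of all genes with an adjusted p under 0.05 in S/S, which describes the choice and is no test of it. The arrays of 3 members did not overlap (Gstm6 higher, Gstm4 and Gstt1 lower), beside 11.8% of all genes, and nothing is read from these counts because this comparison chose the family.

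All 9 genes other than Gstm6 had an S/S mean below wild type, where 42.4% of all genes had one above it. The count of 9 was the same after quantile normalization and after centring the arrays on their medians, and it was 7 without array 1 of the S-set wild type and 8 without array 2 of S/S.

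**Figure D2:**
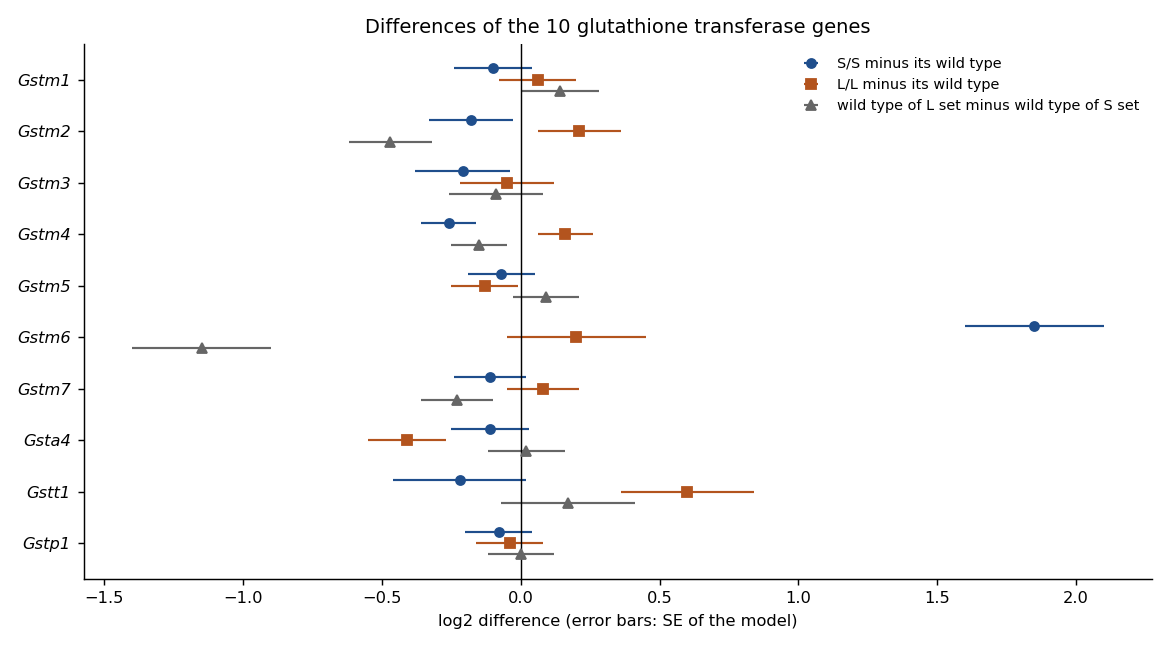
Log2 differences of the 10 genes in S/S minus its wild type (circles), L/L minus its wild type (squares) and between the wild types (triangles), with the SE of the model as error bars. Gstm6 is the 1 gene far from 0 in S/S (1.85), it is lower in the L-set wild type (-1.15), and in L/L the largest differences are those of Gstt1 (0.60) and Gsta4 (-0.41).

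The neighbours of the mu genes on chromosome 3 were set beside them in RefSeq order, which runs Gstm5, Gstm7, Gstm6, Gstm3, Gstm2, Gstm1 and Gstm4. Gstm7 and Gstm3, on either side of Gstm6, differed by -0.11 and -0.21 in S/S. The Gstm3 difference was -0.01 without wild-type array 1, and 0.02 by its other probe set with all arrays. Among the 5 measured genes on each side of the cluster, the S/S differences ran from -0.31 in Amigo1, a neuronal adhesion gene, to 0.43 in Gnai3, an inhibitory G-protein gene. Gnai3 read 8.31, 9.61 and 9.83 in wild type and 9.55, 10.01 and 9.48 in S/S, so its value rested on wild-type array 1. Without that array Gnai3 differed by -0.04, and the 10 flanking genes lay between -0.29 and 0.14. Csf1, the gene of the growth factor that sustains macrophages, was higher by 0.18 (SE 0.10), from 10.83 to 11.01. Its arrays did not overlap, beside 5.49% of all genes that were higher without overlap. Amigo1 was lower without overlap, beside 6.29% of all genes. In L/L the same 10 neighbours lay between -0.18 and 0.21. The S/S difference of Gstm6 thus stood alone in this stretch of 17 measured genes.

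**Figure D3:**
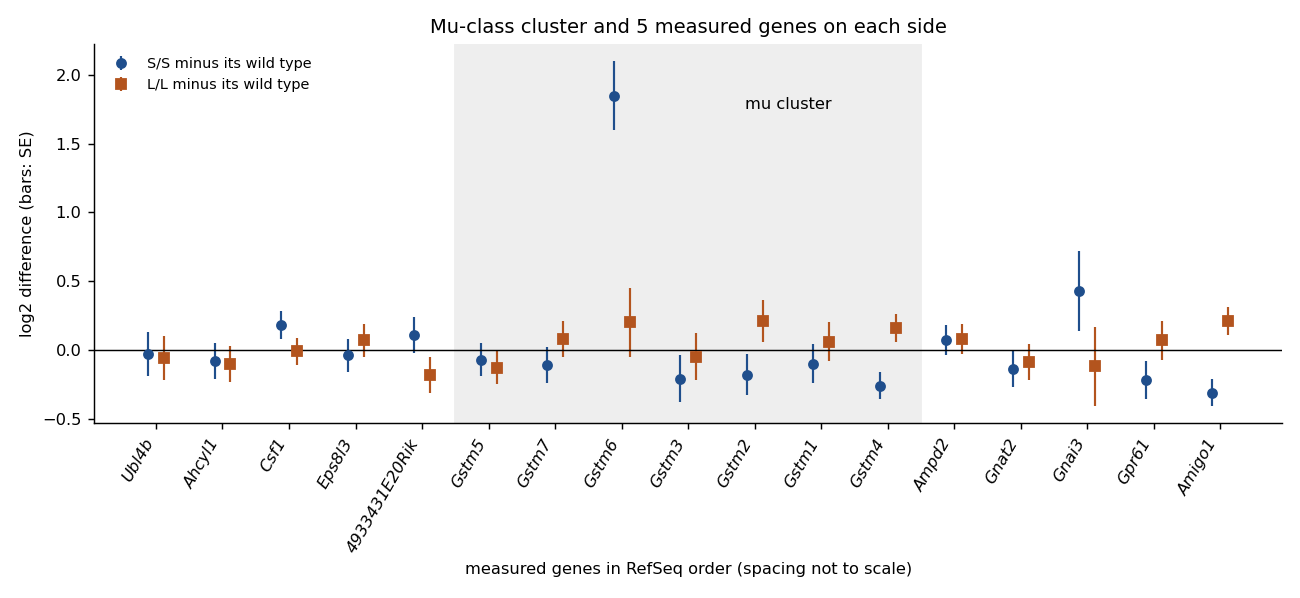
Log2 difference (vertical axis, with SE) of the 7 mu-class genes (shaded) and 5 measured genes on each side in the order of the RefSeq table, for S/S (circles) and L/L (squares). Gstm6 is at 1.85 in S/S, and its 16 neighbours are between -0.31 and 0.43, the latter being Gnai3, which is at -0.04 without wild-type array 1.

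The second comparison, L/L against its matched wild type, was not used to choose the genes and was tested. None of the 10 members passed (0 of 10 in limma's moderated test with Benjamini-Hochberg adjustment over 19938 genes), where 0.0401% of all genes, 8 genes, passed. That count was 2 to 26 when single arrays were left out, with the highest without array 1 of S-set wild type. Without adjustment 2 of the 10, Gsta4 and Gstt1, had a p under 0.05, beside 3.27% of all genes. The mu-class genes were close to their wild type, with differences from -0.13 to 0.21 and a median of 0.08 against 0.02 over all genes.

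Gstt1 had the largest L/L difference of the family. The gene (Entrez 14871, probe set 10370000, chromosome 10) read 8.65, 9.55 and 9.49 in its control arrays and 9.38, 9.82 and 10.30 in L/L, a difference of 0.60 (SE 0.24, limma's moderated test, unadjusted p = 0.0245, adjusted p = 1, 95% interval 0.09 to 1.11). The groups overlapped, and the value of 8.65 in wild-type array 1 was the lowest of all 12 arrays. Without that array the difference was 0.31 (SE 0.20), and without array 3 of L/L 0.37 (SE 0.23). With replicate number in the model as a block it was 0.60 (SE 0.12, limma adjusted p = 0.255). Without both arrays numbered 1 of the L set, which had Y-linked signal, it was 0.54 (SE 0.17). Proliferation genes also differed between these arrays. Their mean level was 8.61, 8.89 and 9.20 in the controls, lowest in the same array as Gstt1, and 9.41, 9.27 and 9.40 in L/L. The list had a median L/L difference of 0.47, with 13 of 14 genes above 0, beside 55.9% of all genes. Its 1 gene that passed was the helicase subunit gene Mcm6 (1.17, SE 0.17, limma adjusted p = 0.0308). No list gene passed when any 1 array was left out other than arrays 1 and 2 of S-set wild type and array 3 of L-set wild type. The part of proliferation in the Gstt1 difference was not tested.

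Gsta4 went the other way in L/L. The gene (Entrez 14860, probe set 10587315, chromosome 9) read 9.59, 9.60 and 9.81 in its control arrays and 9.05, 9.17 and 9.56 in L/L, so that all L/L arrays lay below all wild-type arrays, the third by a narrow margin. The difference was -0.41 (SE 0.14, limma's moderated test, unadjusted p = 0.013, adjusted p = 1, 95% interval -0.71 to -0.10), or 1.33-fold lower, and it did not pass over all genes. Without array 3 of L/L it was -0.56, and without array 1 of L/L -0.30. Gsta4 was 1 of 10 members lower without overlap, beside 5.1% of all genes, and Gstm4 was 1 of 10 members higher without overlap, beside 9.71%.

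Gstm4 read 10.00, 10.13 and 10.06 in control arrays and 10.15, 10.26 and 10.27 in L/L, which was 0.16 higher (SE 0.10, limma adjusted p = 1, 95% interval -0.05 to 0.38). Gstm2 read 10.56, 10.83 and 10.64 in control arrays and 10.80, 10.80 and 11.07 in L/L, with overlap (difference 0.21, SE 0.15, 95% interval -0.11 to 0.53). For the remaining genes the 95% intervals of the L/L difference were -0.25 to 0.38 for Gstm1, -0.41 to 0.32 for Gstm3, -0.40 to 0.13 for Gstm5, -0.19 to 0.35 for Gstm7 and -0.31 to 0.23 for Gstp1. Each holds 0, and each excludes a rise of the size that Gstm6 had in S/S. The interval of Gstm6 itself also ends below that size, but its L-set wild-type values lay at or near the level of an absent target. A rise in RNA from there could read smaller than it was, so this interval cannot exclude such a rise.

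How alike the members were across all arrays was measured as the root-mean-square difference between values centred on each gene's mean over 12 arrays. Between the 9 genes other than Gstm6 it was 0.15 to 0.55 in 36 pairs, the higher values being those with Gstt1, and 0.15 to 0.32 in the 28 pairs without Gstt1. Between Gstm6 and the others it was 1.15 to 1.51. A flat profile would differ from Gstm6 by 1.23. The other members lay 0.12 (Gstp1) to 0.47 (Gstt1) from a flat profile. Their distances to Gstm6 were therefore set mainly by the size of its own change. Such distances cannot tell whether a member followed Gstm6 by a smaller amount, and they include the S/S values for which Gstm6 was picked. The arrays share groups and processing, so these distances describe the 12 arrays and no more.

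Over all genes the 5 profiles most like that of Gstm6 were those of Kcnmb1, a calcium-activated potassium channel subunit of smooth muscle (0.57), Hsd11b2, an enzyme that inactivates glucocorticoids (0.59), Dusp4, a phosphatase of MAP kinases (0.62), Mmp9, a gelatinase (0.63), and the tripartite-motif gene Trim30d (0.67). They were chosen for this likeness over all 12 arrays, so a higher S/S level and a lower L set are part of the choice and no finding. Kcnmb1 went from 7.25 to 8.22 in S/S and was 6.05 and 6.37 in the L set, Hsd11b2 from 7.84 to 8.62, with 6.81 and 7.05, and Dusp4 from 8.20 to 9.12, with 7.36 and 7.58. Mmp9 went from 8.98 to 9.46 and was 7.72 and 7.41 in the L set. Trim30d went from 4.50 to 6.36 and was 4.38 in L-set wild type. Its wild types both read within the range of absent Y-linked genes, so a difference between them could hardly have been measured.

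**Figure D4:**
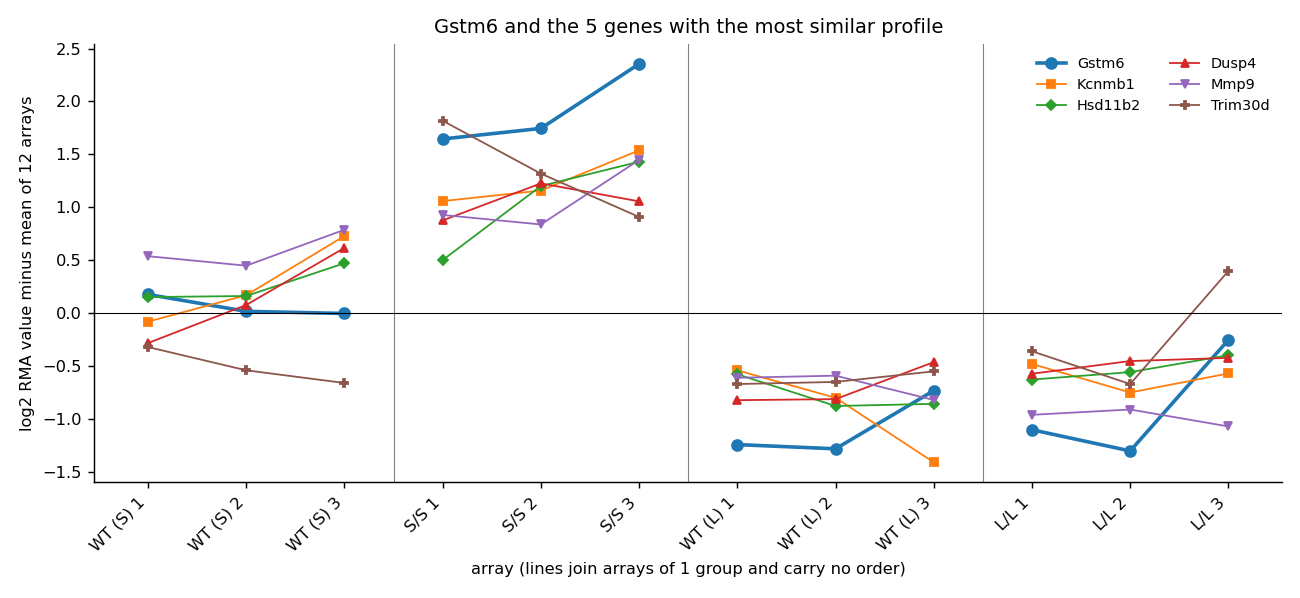
Log2 RMA value minus the gene's mean over 12 arrays (vertical axis) in each array (horizontal axis) for Gstm6 and the 5 genes whose profile differed least from it (root-mean-square difference 0.57 to 0.67). All 6 genes are highest in S/S, and Gstm6 is below its mean in all arrays of the L set.

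Markers of macrophages and blood cells moved with the S/S comparison. Their mean level over 15 genes was 7.99 to 8.25 in the S-set wild type and 8.81 to 8.91 in S/S, and in 14 of the 15 genes all S/S arrays lay above all wild-type arrays, beside 5.49% of all genes. In the L set the list was at 7.50, 8.41 and 9.65 in the controls, where Gstm6 read 4.98, 4.94 and 5.49. It was at 7.17, 8.81 and 8.64 in L/L, where Gstm6 read 5.12, 4.92 and 5.97. The part of these cells in the Gstm6 difference of S/S was not tested. Endothelial markers were at 7.12 to 7.22 in the S-set wild type, 7.42 to 7.50 in S/S and 7.23 to 7.59 in the L set. The 8 endothelial genes were split in S/S, with 4 above and 4 below 0, a median of 0.08 and a highest difference of 1.62.

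The wider family and the NRF2 pathway were read from lists written with earlier results of these data known. Of 20 other glutathione transferases and related membrane enzymes, 16 were measured by a probe set of their own. S/S values of these lists are given as a description, and L/L values were tested. None passed in L/L (0 of 16 by limma, with 0 at an unadjusted p under 0.05). Their median was -0.16 in S/S, against -0.04 over all genes, and 0.02 in L/L. Gsto1, an omega-class enzyme that reduces dehydroascorbate and arsenic compounds, had a value 0.52 above wild type in S/S (SE 0.10), from 11.14 to 11.66. Gstz1, the zeta-class enzyme of tyrosine breakdown, had -0.55 (SE 0.15), from 8.93 to 8.39, so the S/S differences of the family went both ways. Alox5ap and Hpgds, which serve leukotriene and prostaglandin synthesis in blood cells, had S/S values of 0.58 and 0.56 beside the macrophage markers above. The kappa-class gene Gstk1 had -0.32 and the theta-class gene Gstt3 -0.24 in S/S.

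In L/L the 4 genes of smallest p in this list were Gstt3 (0.19), the microsomal gene Mgst1 (0.19), Hpgds (-0.39) and Gstk1 (0.14), none with an unadjusted p under 0.2. The remaining ones, Gsta3, Gsto2, Gstp3, Gstt2, Gstt4, Ltc4s, Mgst2, Mgst3 and Ptges, lay between -0.34 and -0.01 in S/S and between -0.15 and 0.10 in L/L. The lowest S/S value, that of Ltc4s, rested on wild-type array 1, with 7.23, 6.32 and 6.28 in wild type and 6.14, 6.23 and 6.46 in S/S. Gstt4 and Mgst2 read 6.09 and 6.03 in that array and at most 5.45 in the other wild-type arrays. The Gstp3 value of -0.28 did not rest on it (6.47, 6.33 and 6.39 in wild type). Gsta3, Gstt4 and Mgst2 had means over 12 arrays of 5.89, 5.49 and 5.47, near the range of absent Y-linked genes.

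The genes of the NRF2 pathway had median differences close to those of all genes. Nfe2l2, the gene of NRF2, had a difference of -0.04 in S/S (from 11.02 to 10.98) and -0.03 in L/L, and its inhibitor gene Keap1 had -0.05 and 0.03. Of 26 measured NRF2 targets, 0 passed in L/L by limma, with 3 at an unadjusted p under 0.05, beside 3.27% of all genes. Their median was 0.05 in S/S and 0.03 in L/L, beside -0.04 and 0.02 over all genes. In S/S 18 of the 26 lay above 0, beside 42.4% of all genes, and in L/L 15 did, beside 55.9%. The S/S count turned on array 1 of the S-set wild type, so nothing is read from it. Prdx1, counted above 0, read 11.07, 11.76 and 11.54 in wild type and 11.47, 11.50 and 11.47 in S/S. Nqo1, the quinone reductase often used as a readout of NRF2, had -0.27 (SE 0.18) in S/S and 0.31 (SE 0.18) in L/L. Hmox1, heme oxygenase, had 0.25 (SE 0.15) in S/S and 0.10 in L/L. It was the 1 target of 26 that was higher without overlap in S/S, beside 5.49% of all genes. Gclc and Gclm, the subunits of the enzyme that starts glutathione synthesis, had 0.14 and -0.07 in S/S and 0.03 and -0.02 in L/L. Txnrd1, Srxn1 and Slc7a11, which code for thioredoxin reductase, sulfiredoxin and the cystine transporter, had 0.07, 0.11 and 0.04 in S/S and 0.01, 0.07 and -0.08 in L/L. In array 1 of the S-set wild type these 3 read 9.01, 8.59 and 7.76, against group means of 9.28, 9.10 and 8.17. Their positive signs in S/S rested on that array. Keap1 (7.85, mean 8.28) and Nqo1 (7.05, mean 7.48) were also lowest there, so without it their S/S differences are more negative.

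The NRF2 targets of smallest p in L/L were the glutathione reductase gene Gsr (0.43, SE 0.15), the transketolase gene Tkt (0.21), the biliverdin reductase gene Blvrb (0.36) and Nqo1. None passed. Gsr averaged 9.55 in the controls and 9.98 in L/L, and the L/L arrays lay above without overlap, beside 9.71% of all genes. In the S set it averaged 10.71 in the controls and 10.59 in S/S. The gap between the wild types, -1.17, was larger than that of either mutant from its control. The 11 NRF2 regulators had medians of 0.00 in S/S and -0.01 in L/L with 0 passing in L/L, also without adjustment, and the smallest p in L/L belonged to Maff (0.20), Mafk (0.19), Cul3 (-0.18) and Nfe2l1 (-0.08).

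Glutathione synthesis and turnover, with 27 measured genes, had medians of -0.04 in S/S and 0.03 in L/L, with 0 passing in L/L by limma and 2 at an unadjusted p under 0.05, beside 3.27% of all genes. Besides Gsr, the smallest p in L/L belonged to the extracellular peroxidase gene Gpx3 (0.32), to Gpx4 (0.18), which reduces lipid peroxides, and to Chac2 (-0.18), which breaks glutathione down. Gpx3 had a value of 0.48 in S/S. The 8 measured genes of the aryl hydrocarbon receptor pathway, another inducer of these enzymes, had medians of -0.09 and 0.05 with 0 passing in L/L, also without adjustment. In L/L that list was led by Nqo1, Aldh3a1 (0.13), Arnt (-0.07) and Tiparp (-0.08). The 17 measured aldehyde and carbonyl enzymes had medians of 0.02 in both. The alcohol dehydrogenase gene Adh1, named here after its value was seen, had an S/S difference of -0.94 without overlap, beside 6.29% of all genes lower without overlap. None passed in L/L, also without adjustment, and Cbr3 (0.24), Adh7 (-0.29), Akr1b8 (0.17) and Aldh1a2 (-0.24) had the smallest p.

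**Figure D5:**
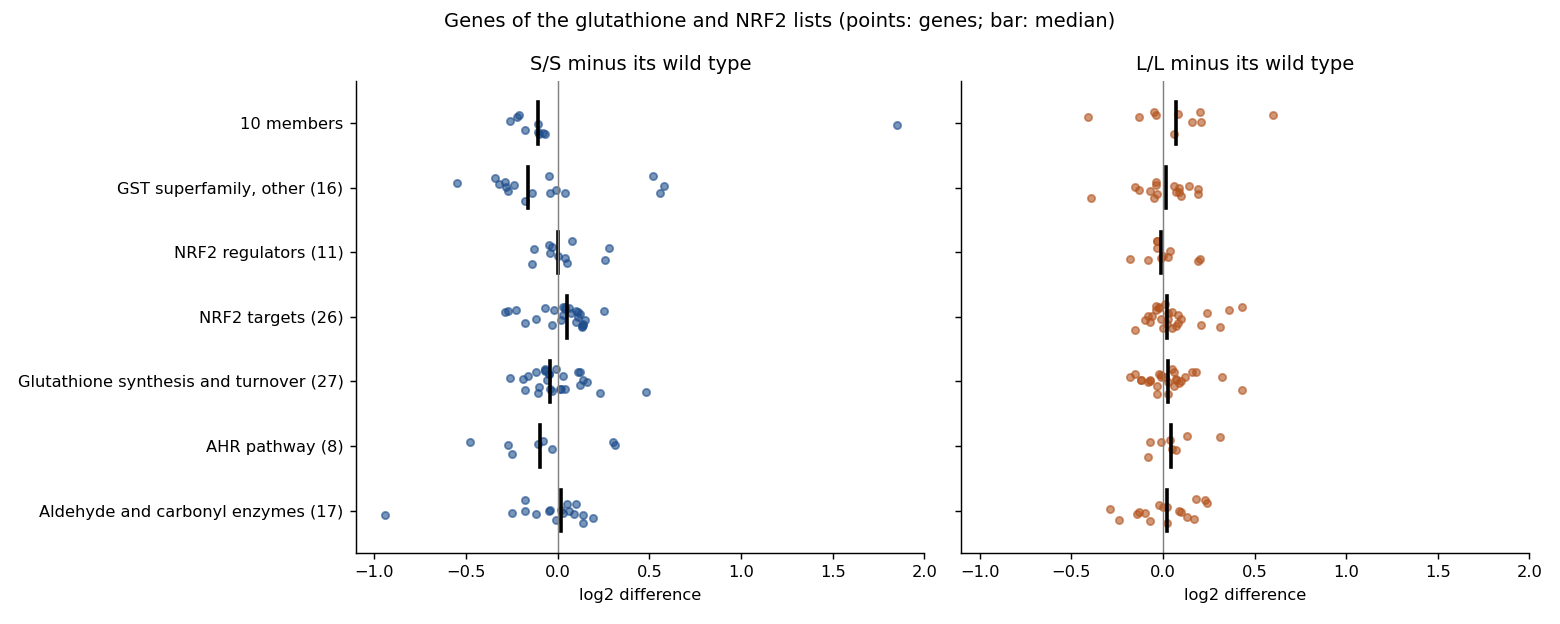
Log2 difference (horizontal axis) of each gene (points) of the 10 members and of 6 related lists, with the list's median as a bar, in S/S (left) and L/L (right). Gstm6 at 1.85 is the outlying point of the members in S/S, and the medians of the 6 lists lie between -0.16 and 0.05 in both comparisons.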

How the data were processed

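The authors deposited log2 values per probe set, made by RMA (a method that corrects background, equalises arrays and summarises probes) in Partek, per the series' design text and the submitters' processing notes. The Partek version, the arrays normalized together and the genome build are not given in the sources used here, and the log2 scale was inferred from their range (2.43 to 14.67). Of 35556 probe sets, 21789 carried 1 gene symbol, 1621 several and 12146 none. Each gene was represented by its single-symbol probe set of highest mean over 12 arrays, with no filter on dim values. All 19938 genes were fitted by limma 3.58.1 in R 4.3.3 with a mean for each of 4 groups (8 residual and 5.19 prior degrees of freedom), a step tested on simulated data. P-values are two-sided, adjusted by Benjamini-Hochberg over all genes, with a threshold of 0.05 on the adjusted p. The number of arrays limits the precision. RefSeq tables gave gene order, symbols and promoter sequences.

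The members and lists were chosen with earlier results of these data known. Named were all members, fixed NRF2 genes, the 4 genes of smallest p in L/L per pathway list, those passing there, the genes flanking the mu cluster and the 5 profiles most like Gstm6. Lists covered other glutathione transferases, NRF2 regulators and targets, glutathione turnover, the aryl hydrocarbon receptor pathway, aldehyde enzymes, proliferation, and fibroblast, macrophage, endothelial, epithelial, hepatocyte and neural markers. Epithelial markers had a mean level of 6.54 to 6.98 and neural markers 6.99 to 7.57. Same-numbered arrays of a set were checked for pairing. Their deviations from group means correlated at 0.388, 0.475 and -0.122 in the S set and 0.601, 0.058 and 0.359 in the L set. Arrays of different numbers correlated at -0.599 to 0.587 in the S set and -0.517 to 0.214 in the L set. The ranges overlapped in both sets, so the numbers were not used as pairs in the main fit. A fit with replicate number as a block was run as an alternative.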

Additional observations from a re-analysis of the deposited data

Results flagged for a closer look

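Gstm4 had values on opposite sides of wild type in the mutants. Its L/L difference did not pass (95% interval -0.05 to 0.38), and the S/S side was not tested. All S/S arrays lay below their wild type (9.86, 9.92 and 10.09 against 10.11, 10.24 and 10.30) and all L/L arrays lay above theirs (10.15, 10.26 and 10.27 against 10.00, 10.13 and 10.06). The S/S effect minus the L/L effect was -0.42 (SE 0.14) on the log2 scale. The difference was not tested, because it contains the comparison that chose the genes.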

How the results depend on the processing

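In S/S the difference of Gstm6 was 1.64 to 1.99 when single arrays were left out. The count of members under the threshold there, which describes how the family was chosen and tests nothing, was 1, and 0 or 1 with single arrays left out, being 0 without array 2 of S-set wild type or any 1 S/S array. It was also 0 without both arrays numbered 1 of the S set (difference 2.05), a setting that, like leaving out both arrays numbered 1 of the L set, was chosen after seeing the data. In L/L 0 members passed in all 22 alternatives. Of 220 L/L values 212 kept their direction and call, and 210 of 220 in S/S. Differences that changed sign were small: in L/L those of Gstm1 with array weights (-0.06) and without both arrays numbered 1 of the L set (-0.04), Gstm7 in the latter (-0.03), and Gstm3 with all its probe sets averaged (0.00). In S/S they were those of Gstm2 (0.01) and Gstp1 (0.06) without both arrays numbered 1 of the S set. With single arrays left out, L/L values ran from -0.09 to 0.18 for Gstm1, -0.13 to 0.06 for Gstm3 and -0.11 to 0.41 for Gstm6, and S/S values from -0.19 to 0.01 for Gstm1, -0.16 to 0.04 for Gstm5 and -0.22 to 0.03 for Gstp1. The fixed lists held 1 gene passing in L/L, 0 to 2 with single arrays left out, 0 with the replicate block, with each set fitted alone, with arrays centred on their medians and without both arrays numbered 1 of the L set, 3 without both arrays numbered 1 of the S set and 9 with array weights. Over all genes, array weights gave 336 passing in L/L against 8, and 415 in S/S against 24. With single arrays left out these counts ran from 2 to 26 in L/L and from 2 to 38 in S/S, so the shares of all genes passing move as much. The replicate block gave 5 in L/L and 37 in S/S and changed no member's call. The cause of these changes was not tested.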

Other observations

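Probe sets that carry several symbols were left out of the comparisons. Those annotated to both pi-class genes Gstp1 and Gstp2 read 9.26 and 9.73 in the S-set wild type, 9.07 and 9.55 in S/S, 9.36 and 9.86 in the L-set wild type and 9.27 and 9.75 in L/L. They differed by -0.19 in S/S, against -0.08 for the probe set of Gstp1 alone. The 4 probe sets shared by Gsta1, Gsta2 and related genes had group means between 4.59 and 6.14, and each was highest in array 1 of the S-set wild type.

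The wild types of the S set and the L set had different levels of some other glutathione enzymes, named after their values were seen. Microsomal Mgst3 was 7.47 in the S set and 8.22 in the L set, Gstk1 was 9.17 and 9.66, and the glutathione reductase gene Gsr was 10.71 and 9.55. All 3 had no overlap between the wild types, beside 27.6% of all genes. What else differed between the sets is not stated in the labels.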
